A study of Mus musculus with 6 samples.

Results

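The 10 annexin genes described here are Anxa1 to Anxa8, Anxa10 and Anxa13, read by 11 of the 28350 probe sets, or 10 of the 19933 genes that a probe set named singly. A probe set was taken as a member when its annotated symbol was 1 of these 10. The list itself was selected on the differences between the groups of this same experiment, which were known beforehand, so the differences of these 10 genes are given as a description, with no test. The array also read Anxa9 and Anxa11, which the list leaves out.

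Annexins are proteins that bind acidic phospholipids when calcium rises, through a conserved core of repeated domains, and each member carries its own amino-terminal tail. They gather at the inner face of membranes, where they are known for roles in membrane repair, vesicle traffic and the anchoring of membrane to the actin skeleton. In the intestine Anxa13 is known as an annexin of the gut epithelium, Anxa2 sits under the brush border with its partner S100a10, and Anxa1 is known as a protein induced by glucocorticoids that takes part in wound closure.

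The samples were epithelial cells freshly isolated from the mouse jejunum, 1 Affymetrix Gene 1.0 ST array each. The 3 arrays labelled control came from mice of the genotype R26-M2rtTA, which carry a doxycycline-dependent transactivator at the Rosa26 locus. The 3 arrays labelled transgenic came from TRE-MSI2::R26-M2rtTA mice, which carry the same transactivator and a transgene for the RNA-binding protein MSI2 under its control. Both groups drank doxycycline for 24 hours, so the transactivator and the drug were shared. The sexes, read from Xist and Y-linked genes, were not balanced, with 2 females and 1 male among the controls and 1 female and 2 males among the mice labelled transgenic. Rosa26 is active in many cell types, so the transactivator is not confined to epithelium. No source used here gives the ages of the mice. By the labels, the comparison asks what differs in the epithelium after 1 day of doxycycline, with the MSI2 transgene against without it. The labels call the samples biological replicates. Precision is limited by having 3 arrays in each group.

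The values are log2 expression per probe set, on which a difference of 1 is 2-fold, and array medians lay between 6.42 and 6.46. Control replicate 1 stood apart, correlating with the other controls at 0.981 and 0.982 against 0.996 between those. Msi2 was 11.30, 9.53 and 9.32 in the controls and 11.23, 10.58 and 11.44 in the arrays labelled transgenic, so control replicate 1 had a level like that of the other group (log2 difference 1.03 ± 0.55, SE, limma adjusted p = 0.257). Its paralog Msi1 was 7.20, 7.97 and 7.62 against 13.44, 12.82 and 13.53 (log2 difference 5.66 ± 0.26, SE, limma adjusted p = 0.000818). Msi1 thus separated the arrays by label and Msi2 did not. Every direction below is therefore between the arrays labelled transgenic and the arrays labelled control. The range of absent transcripts was taken as the 4.07 to 5.06 read for Xist in males and for Y-linked genes in females, and all 8 epithelial markers had means above it. Of these, Krt18 (log2 difference 1.47 ± 0.12, SE, limma adjusted p = 0.00221) and Cdh1 (0.32 ± 0.08, SE, limma adjusted p = 0.0432) were higher, Vil1 (-0.80 ± 0.21, SE, limma adjusted p = 0.0453) was lower, and the other 5, Epcam among them, did not pass. Levels are not compared between genes, because each probe set has its own brightness.

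Annexin A1, A3 and A10 transcripts were the members furthest apart, A5, A2 and A7 were higher by smaller amounts, A6 and A4 were slightly lower, and A8 and A13 overlapped between groups. In the fit across all genes, 6 of the 10 members lay past an adjusted p of 0.05 as higher and 1 as lower, beside 8.97% of all 19933 genes called higher and 9.65% called lower. The groups did not overlap for 6 members that were higher and 2 that were lower, beside 19.5% and 17.5% of all genes. These counts follow from how the list was chosen. The median log2 difference was 0.60 over the members and 0.02 over all genes. A difference of at least 2-fold was found for 4 members and for 9.06% of all genes.

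The regions in front of 3 members that were higher are printed first, because their windows share the letters TATAAA. Anxa5 and Anxa7 were also higher, and their windows lack these letters. RefSeq promoter windows of build GRCm38.p6 were held for 7 of the 10 members, in 9 entries. Anxa3, Anxa6 and Anxa13 were not among them. The 250 bases before each annotated start were searched on both strands for 5 motifs picked after the values were seen. These were the AP-1 site TGACTCA, whose reverse strand reads TGAGTCA, the TATA box TATAAA, the GC box GGGCGG, the TEAD site GGAATG and the STAT site TTCNNNGAA. The sequences below run 5′ to 3′ on the strand of the gene and end at the base before the start. Capitals mark TATAAA and the AP-1 letters.
Anxa1, chr19:20390672-20390921, minus strand: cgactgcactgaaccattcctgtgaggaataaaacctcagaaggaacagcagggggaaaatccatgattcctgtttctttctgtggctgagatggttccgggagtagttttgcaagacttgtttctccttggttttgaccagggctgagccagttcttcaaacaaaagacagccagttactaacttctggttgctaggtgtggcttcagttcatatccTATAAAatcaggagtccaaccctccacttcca
Anxa10, chr8:62123194-62123443, minus strand: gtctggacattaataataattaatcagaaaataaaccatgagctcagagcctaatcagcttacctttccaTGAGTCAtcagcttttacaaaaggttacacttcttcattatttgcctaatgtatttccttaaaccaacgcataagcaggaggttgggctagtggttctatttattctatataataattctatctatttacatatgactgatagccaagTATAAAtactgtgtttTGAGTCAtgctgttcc
Anxa2, chr9:69453433-69453682, plus strand: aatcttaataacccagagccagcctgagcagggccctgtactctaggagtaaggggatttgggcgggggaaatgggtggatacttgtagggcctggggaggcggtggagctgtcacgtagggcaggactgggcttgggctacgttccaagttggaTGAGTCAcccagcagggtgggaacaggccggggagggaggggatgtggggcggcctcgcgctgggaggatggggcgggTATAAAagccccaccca

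TATAAA occurred in front of Anxa1, Anxa2 and Anxa10 among the 7 members, in 3 of their 9 windows, and in 12.4% of all 32851 windows of this length. In Anxa1 and Anxa10 it lay at the same place, 32 to 27 bases before the start, and in Anxa2 17 to 12 bases before it. The AP-1 letters occurred in Anxa10 at 180 to 174 and at 16 to 10 bases before the start, and in Anxa2 at 95 to 89. They occurred in 4.46% of all windows. The GC box was found for Anxa2 and Anxa7 and in 32.7% of all windows, the TEAD letters for Anxa1 and in 12.6%, and the STAT letters for 0 of the 7 members and in 7.02% of all windows. No motif overlapped another among these matches. A match of letters describes the sequence and does not show that a factor binds there.

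Anxa1 encodes annexin A1, once called lipocortin, which restrains inflammation through formyl peptide receptors when it is released. It was 5.09, 5.19 and 4.97 in control replicates 1, 2 and 3 and 10.01, 8.38 and 10.22 in transgenic replicates 1, 2 and 3. The groups were separated by 3.19 log2 units, and transgenic replicate 2 was the lowest of its group. The means were 5.08 ± 0.11 and 9.54 ± 1.00 (SD, n = 3 each), a log2 difference of 4.46 ± 0.47 (SE), or 21.9-fold, the 14th highest of 19933 genes. The control values lay near the range of absent transcripts, and 1 of the 3 lay within it. Signals that low move little with the amount of transcript, so the size of this difference is uncertain.

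Anxa3 encodes annexin A3, known from the granules of neutrophils and also made by epithelia. Its values were 6.60, 6.69 and 7.03 in the controls and 11.15, 10.04 and 11.05 in the arrays labelled transgenic. The groups lay 3.00 log2 units apart, and transgenic replicate 2 was again the lowest of its group. The log2 difference was 3.97 ± 0.31 (SE), or 15.7-fold. All 3 control values lay above the range of absent transcripts.

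Anxa10 encodes annexin A10, a member best known from the stomach lining. It measured 4.86, 5.20 and 5.48 in the controls and 9.27, 9.22 and 8.31 in the arrays labelled transgenic. Here transgenic replicate 3 was the lowest of its group, and 2.83 log2 units still parted the groups. The log2 difference was 3.76 ± 0.30 (SE), or 13.5-fold, with 1 control value inside the range of absent transcripts. The stomach surface markers measured beside it (Muc5ac, Gkn1, Gkn2, Tff1, Tff2 and Muc6) had 0 of 6 genes past the threshold in limma, and 0 at an unadjusted p under 0.05, and their summed level, on the linear scale, was 257 to 277 in the controls and 276 to 290 in the arrays labelled transgenic.

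Anxa5 encodes annexin A5, which binds phosphatidylserine and is used as a label for dying cells. It was 8.13, 8.19 and 8.48 in the controls and 10.26, 9.63 and 10.21 in the arrays labelled transgenic. The lowest array labelled transgenic, replicate 2, stood 1.15 log2 units above the highest control. The log2 difference was 1.77 ± 0.19 (SE), or 3.40-fold.

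Anxa2 encodes annexin A2, which forms a tetramer with S100a10 and helps to assemble plasminogen activation at the cell surface. It was 11.97, 12.21 and 12.04 in the controls and 12.73, 12.79 and 12.86 in the arrays labelled transgenic. The values within each group were close together, with SDs of 0.12 and 0.06 (n = 3 each). The log2 difference was 0.72 ± 0.09 (SE), or 1.65-fold, with no overlap.

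Anxa7 encodes annexin A7, or synexin, named for its part in membrane fusion during secretion. It was 8.66, 8.68 and 8.41 in the controls and 8.96, 9.16 and 9.09 in the arrays labelled transgenic. The groups did not overlap but lay only 0.28 log2 units apart. The log2 difference was 0.49 ± 0.11 (SE), or 1.40-fold. Its place past the threshold was lost in 5 of the 6 fits that leave out 1 array, all but that without control replicate 1. Across these fits its log2 difference ran from 0.40 without control replicate 3 to 0.54 without control replicate 2 or transgenic replicate 1, against 0.53 without control replicate 1, 0.44 without transgenic replicate 2 and 0.48 without transgenic replicate 3.

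**Figure D1:**
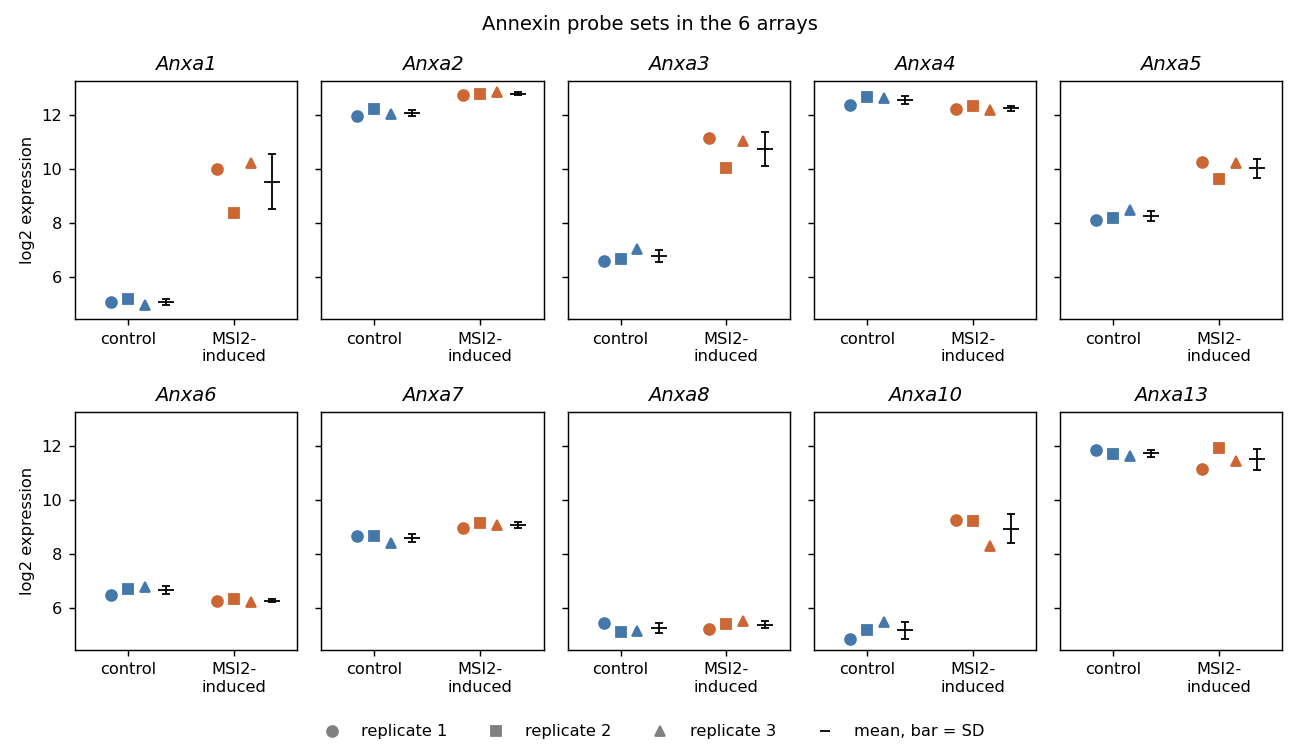
Log2 expression of the 10 annexin genes in each array, 1 panel per gene on a common axis, with the arrays labelled control in blue and those labelled transgenic (MSI2-induced) in orange. Marker shapes give the replicate number, and the black dash and bar give the mean and SD of 3 arrays. Anxa1, Anxa3 and Anxa10 stand 2.83 to 3.19 log2 units clear of the controls, and Anxa8 and Anxa13 overlap.

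Anxa6 encodes annexin A6, the large member with a doubled core, found in lymphocytes and mesenchymal cells as well as epithelia. It was the only member called lower. In its brighter probe set it was 6.49, 6.71 and 6.79 in the controls and 6.25, 6.33 and 6.24 in the arrays labelled transgenic, a log2 difference of -0.39 ± 0.10 (SE). The second probe set of the gene read 6.14, 6.07 and 6.22 against 6.07, 6.06 and 6.14, a log2 difference of -0.05 ± 0.07 (SE), and its groups overlapped. The probe sets of this gene therefore disagree in size, and with their mean the log2 difference was -0.22. The place past the threshold was lost in 5 of the 6 fits that leave out 1 array, with log2 differences of -0.37, -0.33, -0.38, -0.42 and -0.38 without control replicates 2 and 3 and transgenic replicates 1, 2 and 3, and was kept without control replicate 1, at -0.48. Lymphocyte transcripts moved the same way between groups. In limma 9 of 9 markers of T cells and intraepithelial lymphocytes were lower at an adjusted p under 0.05, beside 9.65% of all genes. Their summed level, on the linear scale, was 4874 to 7812 in the controls and 907 to 2135 in the arrays labelled transgenic. Within the controls this sum was highest in replicate 1 (7812, against 4908 and 4874), where Anxa6 was lowest in its brighter probe set. Within the arrays labelled transgenic the sum and the brighter probe set were both highest in replicate 2. The second probe set was lowest in that array, at 6.06. In whole epithelial preparations fewer cells of a type and less RNA per cell cannot be told apart, and the part of lymphocytes in the Anxa6 values was not tested.

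Anxa4 encodes annexin A4, an epithelial member that binds membranes of secretory and apical compartments. It was 12.38, 12.66 and 12.63 in the controls and 12.22, 12.35 and 12.18 in the arrays labelled transgenic. The groups missed each other by only 0.02 log2 units, and the gene was not past the threshold, with a log2 difference of -0.30 ± 0.11 (SE). Without control replicate 1, the lowest control, the log2 difference was -0.39 and the gene was past it.

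Anxa13, the gut epithelial member, was 11.86, 11.70 and 11.62 in the controls and 11.15, 11.92 and 11.43 in the arrays labelled transgenic. Transgenic replicate 2 lay above every control and the other two lay below every control. The log2 difference was -0.23 ± 0.20 (SE). The enterocyte markers showed a like spread within the arrays labelled transgenic, with a summed linear level of 34070 to 74273 against 53331 to 99363 in the controls, replicate 2 being the highest of its group, and 0 of 10 were past the threshold in limma, against 2 at an unadjusted p under 0.05. Within the controls, replicate 1 was the lowest for the enterocyte sum (53331, against 99363 and 96953) but the highest for Anxa13. The link between the enterocyte markers and Anxa13 was not tested.

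Anxa8, a member known from stratified epithelia, was dim. It was 5.46, 5.12 and 5.16 in the controls and 5.24, 5.42 and 5.51 in the arrays labelled transgenic, close above the range of absent transcripts. The groups overlapped, and the log2 difference was 0.14 ± 0.12 (SE).

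The annexins outside the list were tested in the same fit. Anxa9, a member that has lost the usual calcium-binding residues, was 6.59, 5.72 and 5.89 in the controls and 7.08, 6.58 and 6.45 in the arrays labelled transgenic. Control replicate 1 lay among the arrays labelled transgenic, and the log2 difference of 0.64 ± 0.27 (SE) did not pass in limma (adjusted p = 0.165). In the fit with a replicate block its limma adjusted p was 0.0169, and without control replicate 1 the log2 difference was 0.90 and the limma adjusted p 0.0251; without any other single array the adjusted p ran from 0.211 to 0.397. Anxa11, which links lysosomes to RNA granules, was 10.95, 11.23 and 11.34 against 11.32, 11.28 and 11.55 with overlapping groups, and its log2 difference of 0.21 ± 0.13 (SE) did not pass in limma (adjusted p = 0.346). 

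**Figure D2:**
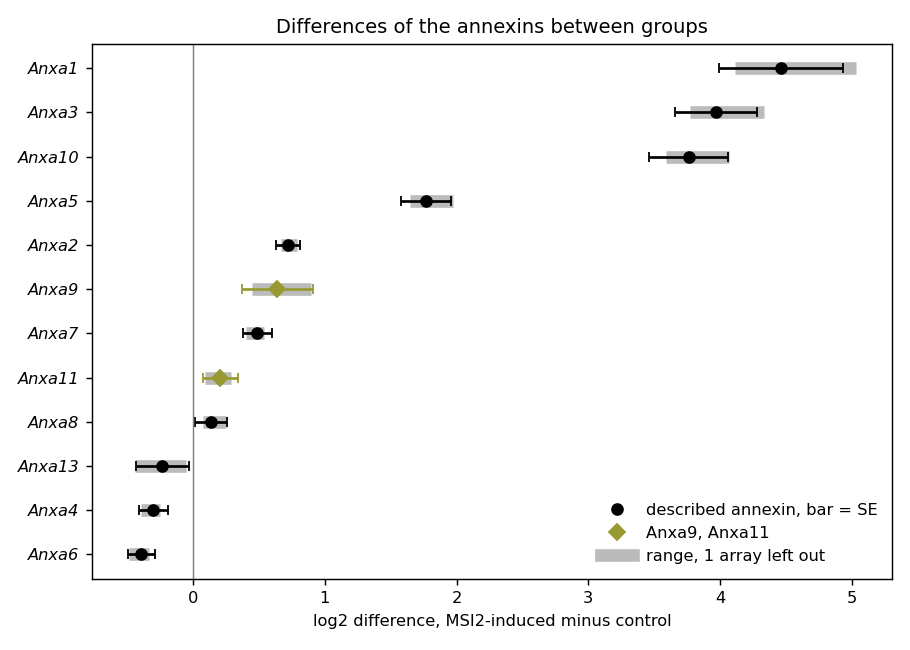
Log2 difference of the 12 annexin genes on the array, transgenic (MSI2-induced) minus control, ordered by size. Points with bars are the estimate and its SE from limma over 6 arrays, diamonds are Anxa9 and Anxa11, and grey bands span the estimates with 1 array left out. The bands of Anxa1, Anxa3 and Anxa10 lie between 3.59 and 5.03, and no band of the 12 genes crosses 0.

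The members that were higher did not all follow the same order within the arrays labelled transgenic. Replicate 2 was the lowest for Anxa1, Anxa3 and Anxa5, replicate 1 for Anxa2 and Anxa7, and replicate 3 for Anxa10. Likeness of profiles was measured as the root mean square difference over the 6 arrays, after each gene was centred on its own mean. By this measure Anxa1 and Anxa3 were 0.39 log2 units apart, Anxa3 and Anxa10 0.57, and Anxa1 and Anxa10 0.90.

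The genes outside the family with profiles nearest to that of Anxa1 were Plaur at 0.36 log2 units, Sprr2h at 0.37, Sprr2f at 0.40, Il1rn at 0.50 and F3 at 0.51. Plaur is the receptor for urokinase, the Sprr2 genes encode small proline-rich proteins of the cornified envelope, Il1rn encodes the antagonist of the interleukin 1 receptor, and F3 encodes tissue factor. Their log2 differences were 4.21, 4.41, 4.83, 3.54 and 4.67. For Anxa1, and for Anxa6 below, like differences follow from how the genes were picked, since values were centred but not scaled. All 3 control values of Sprr2h lay in the range of absent transcripts, so its difference and its distance from Anxa1 are uncertain. Sprr2 genes have close relatives that may share probes. Nearest to Anxa6, the member furthest in the other direction, were Gfus, Dpy19l4, Stag2 and Ppp1r35 at 0.03 and Vps9d1 at 0.04, with log2 differences between -0.45 and -0.34.

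The members lie on 9 chromosomes, with Anxa7 and Anxa8 both on chromosome 14. Of the 20 measured protein-coding genes next to them on either side, 1 was higher and 2 were lower in limma, and 17 did not pass. Over all genes 8.97% were called higher and 9.65% lower. These neighbours were looked up after the members' values were seen. Anxa1 lies between Rorb, with a log2 difference of 0.19 ± 0.11 (SE), and the retinaldehyde dehydrogenase Aldh1a1, with -0.78 ± 0.38 (SE). Anxa3 lies between Fras1 at -0.28 ± 0.12 and the kinase gene Bmp2k at -0.21 ± 0.10, and Anxa5 between Qrfpr at 0.05 ± 0.10 and 1810062G17Rik at -0.04 ± 0.09 (SE), none of them past the threshold. The neighbours of Anxa10 were the interferon-induced helicase Ddx60, which fell by 2.05 on the log2 scale (SE 0.46, limma adjusted p = 0.0314), and Spock3 at 0.01 ± 0.07. Fam91a1 beside Anxa13 rose by 0.73 ± 0.09 (SE, limma adjusted p = 0.00695), and Gmcl1 beside Anxa4 was at -1.16 ± 0.13 (SE, limma adjusted p = 0.00546).

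Genes whose products bind annexins or act with them were tested as 7 lists, of which 61 of 70 genes had a value. In limma 12 were higher and 6 lower at an adjusted p under 0.05 over all genes, where 8.97% and 9.65% of all genes were. With control replicate 1 left out 14 partner genes were lower, and with control replicate 2 left out 7 were higher and 2 lower. With control replicate 3 or transgenic replicate 3 left out, 2 were lower.

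Of 5 S100 partner genes 4 rose, with a median log2 difference of 1.40 over the list. S100a10, the partner of annexin A2, was 13.37, 13.34 and 13.28 in the controls and 13.70, 13.78 and 13.77 in the arrays labelled transgenic. It rose by 0.42 ± 0.07 (SE, limma adjusted p = 0.0148), with no overlap. S100a11, which binds annexin A1, was 10.78, 11.01 and 10.87 against 12.71, 12.36 and 12.59. It rose by 1.67 ± 0.12 (SE, limma adjusted p = 0.00172), or 3.18-fold. S100a6, or calcyclin, was 6.91, 7.15 and 7.03 against 9.77, 9.55 and 9.27, a rise of 2.50 ± 0.14 (SE, limma adjusted p = 0.00108). Ahnak, a giant scaffold that binds the complex of annexin A2 and S100a10, was 8.22, 9.50 and 9.52 against 10.73, 10.38 and 10.32, a rise of 1.40 ± 0.37 (SE, limma adjusted p = 0.0473). The Ahnak call was lost with the replicate block (limma adjusted p = 0.0513). It was also lost in 5 of the 6 fits that leave out 1 array. The highest limma adjusted p for Ahnak was 0.143, without transgenic replicate 1. The S100a10 call was lost in 3 of these 6 fits, with a highest limma adjusted p of 0.0661 without control replicate 3. S100a4 was at 0.23 ± 0.10 (SE, limma adjusted p = 0.196).

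Among 16 membrane repair genes 2 rose and 1 fell, with a median log2 difference of -0.03. Both large subunits of the classical calpains, calcium-activated proteases that cleave annexins and repair proteins, changed in opposite directions. Capn2 was 6.60, 6.67 and 6.86 in the controls and 9.46, 9.13 and 9.20 in the arrays labelled transgenic, a rise of 2.55 ± 0.12 (SE, limma adjusted p = 0.000902). Capn1 was 10.33, 10.89 and 10.91 against 8.95, 9.68 and 9.16, at -1.44 ± 0.24 (SE, limma adjusted p = 0.0142, and 0.0653 without transgenic replicate 3). Vps4b, an ATPase that recycles the membrane-scission machinery, rose by 0.58 ± 0.11 (SE, limma adjusted p = 0.0217, and 0.0847 without transgenic replicate 3). The other 13, the repair proteins Dysf and Myof among them, did not pass. With 1 array left out, the calls of Capn1 and Vps4b were each lost in 3 of the 6 fits, and that of Capn2 in 0.

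The annexins bind phospholipids that scramblases and flippases place on either face of a membrane. Of 10 such genes 3 rose and 3 fell, with a median log2 difference of 0.01. Plscr2 was 4.97, 4.95 and 5.33 in the controls and 10.01, 9.42 and 9.18 in the arrays labelled transgenic, a rise of 4.45 ± 0.23 (SE, limma adjusted p = 0.000975). Of the Plscr2 controls, 2 of 3 lay in the range of absent transcripts, so the size of this rise is uncertain. The related Plscr1 was 11.54, 11.22 and 11.30 against 13.50, 13.55 and 13.67, a rise of 2.22 ± 0.11 (SE, limma adjusted p = 0.000936). Plscr3 was at -0.57 ± 0.07 (SE, limma adjusted p = 0.00743), and the calcium-gated scramblase Ano6 at -1.01 ± 0.16 (SE, limma adjusted p = 0.0124, and 0.0574 without transgenic replicate 3). The Ano6 call was lost in 3 of the 6 fits that leave out 1 array. The Plscr genes are close relatives, and shared probes between them were not checked.

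The plasminogen list, which holds enzymes and receptors that act on the annexin A2 platform, had 2 of 6 genes higher and 1 lower. Plat, tissue plasminogen activator, rose by 6.25 ± 0.31 (SE, limma adjusted p = 0.00094) and Plaur by 4.21 ± 0.23 (SE, limma adjusted p = 0.00108). Of the Plat controls, 2 of 3 lay in the range of absent transcripts, so the size of that rise is uncertain. The plasminogen receptor gene Plgrkt was at -1.26 ± 0.17 (SE, limma adjusted p = 0.0081). Of 8 copines, another family of calcium-dependent phospholipid-binding proteins, Cpne8 rose by 1.33 ± 0.23 (SE, limma adjusted p = 0.016, and 0.0676 without control replicate 3) and 7 did not pass. Of 12 phospholipase A2 genes, the enzyme class that annexins were first named for inhibiting, Pla2g6 was at -1.40 ± 0.37 (SE, limma adjusted p = 0.0489, and 0.158 without control replicate 3) and 11 did not pass. The Cpne8 call was lost in 2 and the Pla2g6 call in 4 of the 6 fits that leave out 1 array. The 4 formyl peptide receptor genes with a value did not pass in limma, nor at an unadjusted p under 0.05, and the 3 others were not analysed here. The lists were chosen with earlier results of these data known.

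**Figure D3:**
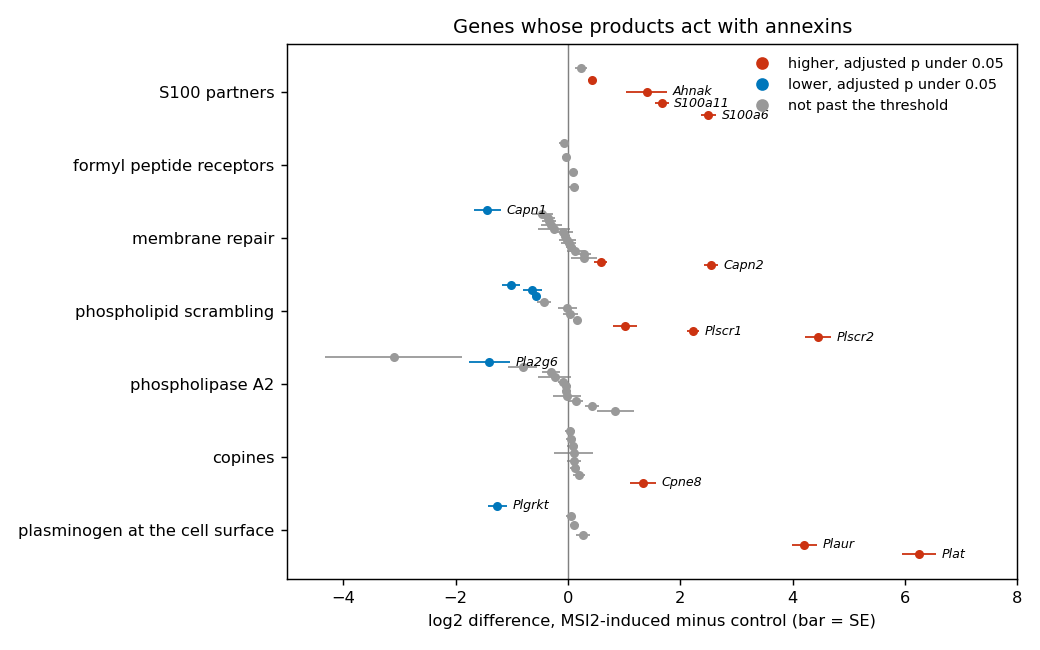
Log2 differences, transgenic (MSI2-induced) minus control, of the 61 partner genes in 7 lists, with the SE from limma as bars. Red points were higher and blue points lower at an adjusted p under 0.05 over all genes, grey points did not pass, and the named genes are those called with a difference above 1.2 in size. Of the S100 partners 4 of 5 are higher, while the scramblase list holds 3 in each direction.

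Other cell types that make annexins were followed through their markers, since annexin A1 and A3 are abundant in neutrophils and macrophages. Of 10 neutrophil markers 4 rose in limma, among them Ly6g by 8.06 ± 0.11 (SE, adjusted p = 5.09e-06) and the chemokine receptor Cxcr2 by 0.83 ± 0.15 (SE, adjusted p = 0.0186). The summed linear level of the list was 360 to 369 in the controls and 7943 to 9389 in the arrays labelled transgenic, and without Ly6g 332 to 339 and 432 to 462. Ly6g has close relatives that may share its probes. All 3 control values of Cxcr2 and 2 of Ly6g lay in the range of absent transcripts, so the sizes of these rises are uncertain. For Cxcr2, 2 of the 3 values in the arrays labelled transgenic also lay in that range, so most of its values read as absent. The other 2 that rose were the calprotectin gene S100a9 by 1.14 ± 0.16 (SE, limma adjusted p = 0.00915) and the granule gene Ltf by 0.38 ± 0.09 (SE, limma adjusted p = 0.0337). The other calprotectin gene, S100a8, and the granule genes Mpo, Elane, Ngp and Camp did not pass, nor did Csf3r. Of 8 macrophage markers 2 rose, Cd14 by 1.07 ± 0.20 and Mrc1 by 1.03 ± 0.12 (SE, limma adjusted p = 0.0191 and 0.00541). The others, Adgre1, Csf1r, Cd68, Fcgr1, C1qa and C1qb, did not pass. The sums of the list were 431 to 491 and 706 to 721, and no sum without Cd14 and Mrc1 was made. Beside these neutrophil and macrophage counts, 8.97% of all genes were called higher. None of the 6 fibroblast, 4 smooth muscle and 4 endothelial markers passed in limma, and at an unadjusted p under 0.05 only the fibroblast gene Pdgfra did. The part of neutrophils and macrophages in the annexin values was not tested.

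**Figure D4:**
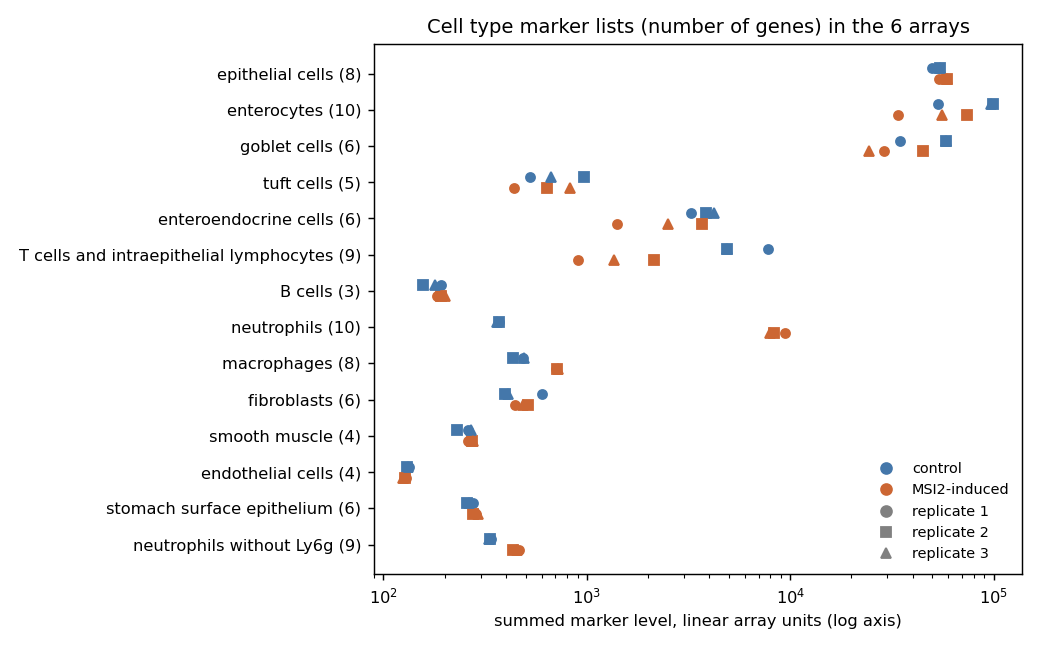
Summed level of each cell type marker list in the 6 arrays, on the linear array scale along a log axis, with the number of genes in brackets, controls in blue, arrays labelled transgenic (MSI2-induced) in orange and marker shapes for the replicate numbers. The lymphocyte sum is below every control in all 3 arrays labelled transgenic, and the neutrophil sum is 332 to 339 in the controls and 432 to 462 in the others once Ly6g is left out.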

How the data were processed

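In all, 6 arrays were analysed, 3 labelled control and 3 labelled transgenic. The authors deposited log2 values, with a column for each array and a row for each probe set, and the submitters' processing notes name Partek and RMA without versions. RMA adjusts background and equalises arrays, so differences of dim probe sets are compressed. No genome build was stated in these sources. Of 28350 probe sets, 21780 had 1 annotated gene, 1618 several and 4952 none. Symbols came from the platform annotation and, by gene identifier, RefSeq GRCm38.p6 (21689 matched). The brightest 1-gene probe set stood for each gene.

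Groups were compared in limma 3.58.1 (R 4.3.3), group as the only term, Benjamini-Hochberg over 19933 genes, threshold 0.05, and tested on simulated data. Members, gene lists and naming rules were chosen with earlier results of these data known. Named were all annexins, Msi1, Msi2, up to 4 called genes with the lowest p per partner list, and the 5 nearest profiles of 2 members; neighbouring genes and markers named beside them were picked after their values were seen. Deviations from group means correlated by 0.52, 0.41 and 0.13 between arrays of the same replicate number. Arrays of different replicate numbers are not set beside them, so these values cannot show pairing, and no label states one. The replicate block was an alternative. Sex, read from Xist and Y-linked genes, was another (3 females, 3 males). A total of 19 alternatives were tried.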

Additional observations from a re-analysis of the deposited data

How the results depend on the processing

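The log2 differences of the 10 annexins kept their sign in every alternative that gave a value. In many of these the sign could not change. The replicate block, the fit of all probe sets singly, the filters on the mean, the intensity trends and the other thresholds leave a log2 difference as it was. That of Anxa6 moved by more than its replicate spread once, to -0.22 with the mean of its probe sets. Anxa1, Anxa2, Anxa3, Anxa5 and Anxa10 stayed past the threshold in all 19 alternatives. The members were selected on this same contrast, so their places past the threshold, kept or lost, are a description and not a test. Anxa6 and Anxa7 lost their place with sex as a block, at -0.41 and 0.47, and at an adjusted p under 0.01, and Anxa7 did with an intensity trend in the variance model, robust or not. The count of annexins called lower was 1 in the main comparison, 0 with sex as a block, 0 with the mean of all probe sets, 0 at an adjusted p under 0.01, 2 with array weights and 2 at an adjusted p under 0.1, and it ran from 0 to 2 with 1 array left out. Partner genes called higher were 12, or 7 at an adjusted p under 0.01, and 7 to 13 with 1 array left out; those called lower were 6, or 11 with array weights, 2 at 0.01, and 2 to 14 with 1 array left out. Over all genes 3710 were called, 2159 with sex as a block, 7072 with array weights, 801 at 0.01, and 952 to 5542 with 1 array left out. A fit with 1 array fewer has less power, other things equal. The count depended on which array was left out. It was 5542 without control replicate 1, 4080 without transgenic replicate 2 and 952 without control replicate 3. With the replicate block 5139 genes were called, and 6 annexins were higher and 1 lower, as without it. The control levels of Anxa1, Anxa10 and Anxa8, near those of absent transcripts, limit how far their differences can be sized. The causes of these shifts were not tested.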
